A study of Homo sapiens with 60 samples.

Results

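HT29 cells, an established human colorectal adenocarcinoma line, received a hot water extract of Cinnamomi Cortex, the dried bark of cassia cinnamon, and the middle dose was compared with the low dose. Of the 60 libraries analysed here, 6 enter that comparison, 3 from cells given 100 µg/mL and 3 from cells given 20 µg/mL, and it covers every gene expressed well enough to be tested, 16356 in number. The question is which responses to the bark already differ between these doses. For context, values are also given for 3 libraries at 500 µg/mL, the top dose, and for 3 of the vehicle, dimethyl sulfoxide (DMSO). All were treated for 24 h and carry the same batch name in their labels. The labels give the vehicle as 0.1% DMSO and the design text as 2%, and what solvent the extract libraries carried is not stated in the sources used here. The design text adds that extracts which inhibited the cells by 20% at less than 500 µg/mL were diluted from that concentration instead. Whether this applies to the bark is not stated, so the doses are nominal. The libraries were chosen by their sample labels, and nothing says that replicates were separate cultures.

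Cinnamon bark is rich in cinnamaldehyde, a reactive aldehyde. Cells sense such electrophiles through KEAP1, which normally keeps the transcription factor NRF2 short-lived. Once released, NRF2 binds antioxidant response elements and drives enzymes that reduce or conjugate reactive compounds, regenerate NADPH, make glutathione and store iron.

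Total counts ran from 22114398 to 24802669 at 100 µg/mL and from 22034792 to 27692058 at 20 µg/mL. Levels are given in CPM, counts scaled to library size. Of 10 markers of colon epithelium, 8 were above 10 CPM in all 6 libraries, and CDX2 and CEACAM5 were lower. Together the 10 summed to 12200 to 13000 CPM at 100 µg/mL and 11800 to 13000 CPM at 20 µg/mL. Fibroblast markers, 8 in number, summed to 2.14 to 2.7 CPM and 2.15 to 2.61 CPM at these doses, with COL1A2 at 0. The 7 leukocyte markers summed to 1340 to 1550 CPM and 1260 to 1440 CPM, nearly all of it LYZ, with CD3E at 0. The 8 hepatocyte markers summed to 397 to 439 CPM and 348 to 425 CPM, nearly all of it SERPINA1, with ALB, APOB and FGB at 0. In a principal component analysis of the 9 libraries of the bark, both replicate 1 libraries of these doses lay at negative values of the first component (37.8% of the variance) and the other 4 at positive values, and replicate 2 at 100 µg/mL stood apart on the third.

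A property of the libraries moved with dose. The slope of a library's log2 CPM on transcript length, per doubling of length, was -0.0121, -0.0455 and -0.0221 at 100 µg/mL, against 0.0192, -0.0056 and 0.0485 at 20 µg/mL. These do not overlap, though 3 against 3 cannot reach a two-sided exact permutation p below 0.1. Long transcripts were thus counted relatively less at 100 µg/mL, and at 500 µg/mL the slopes were alike, at -0.0278, -0.0283 and -0.0240. Messages of ribosomal proteins, which are short, took 5.46, 5.56 and 5.47% of counts at 100 µg/mL, against 5.03, 5.31 and 5.05% at 20 µg/mL. Unlike the slopes, these shares were not alike at 100 and 500 µg/mL. At 500 µg/mL they were 5.22, 5.1 and 5.38%, below all at 100 µg/mL and overlapping those at 20 µg/mL. The part of this slope in any single result was not tested, but values with the slope removed are given where they change a call.

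**Figure D1:**
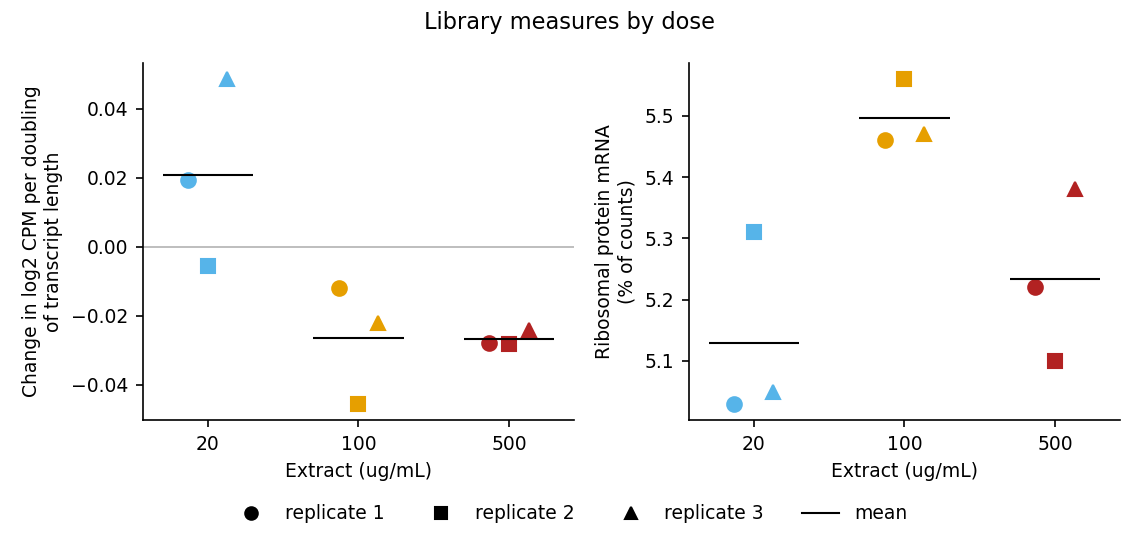
Each point is 1 library at 20, 100 or 500 µg/mL of Cinnamomi Cortex, marked by replicate, and lines are means. The left axis is the change in log2 CPM per doubling of transcript length and the right axis the percentage of counts from ribosomal protein genes. The 3 slopes at 100 µg/mL all lie below the 3 at 20 µg/mL, and the 3 ribosomal shares all lie above.

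Only KDM3A passed the test at 100 against 20 µg/mL, and it was lower at the middle dose. By edgeR's quasi-likelihood test with Benjamini-Hochberg adjustment, 1 of 16356 genes (0.00611%) was called at an adjusted p under 0.05, 0 of them higher. At an unadjusted p under 0.05 there were 1429 genes (8.74%), 707 higher (4.32%) and 722 lower (4.41%). The other doses set the scale, since 500 against 20 µg/mL, which shares the low-dose libraries, gave 753 higher (4.6%) and 917 lower genes (5.61%). Between 500 and 100 µg/mL, which shares the middle-dose libraries, 497 were higher (3.04%) and 466 lower (2.85%). Replicates of 100 and 20 µg/mL with the same number deviated together, and with the replicate number as a block over the 54 treated libraries, the calls rose to 16 (0.0978%), 4 higher and 12 lower. At an unadjusted p under 0.05 the blocked fit had 5.91% of genes higher and 6.29% lower. The unblocked count was 0 without replicate 2 at 100 µg/mL and without replicate 1 or 3 at 20 µg/mL, and 31 without replicate 1 at 100 µg/mL. The blocked count was 47 without replicate 1 of every dose, and 3 without replicate 2 or 3. DESeq2 called 21 genes, 9 higher and 12 lower. It gave no adjusted p for 13001 genes, KDM3A among them, so that it did not judge this gene.

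KDM3A (chromosome 2, 86440647 to 86492716 in GRCh38) encodes a histone demethylase that hypoxia induces. Its level was 35.4, 32.9 and 36.7 CPM at 100 µg/mL, against 43.5, 40.0 and 41.7 CPM at 20 µg/mL. All 3 middle-dose libraries lay below all 3 low-dose ones, a log2 fold change of -0.25 (SE 0.04, adjusted p = 0.0182, n = 3 each, edgeR). It was not graded with dose. At 500 µg/mL it stood at 42.2, 37.3 and 39.9 CPM and in the vehicle at 36.5, 37.9 and 37.8 CPM, so that the vehicle libraries lay between those of the 2 doses compared, apart from a small overlap with the middle dose. The 45 libraries of other treatments ranged from 35.3 to 41.9 CPM. On the log2 scale it was higher at 500 than at 100 µg/mL by 0.18 (adjusted p = 0.00833), while 500 against 20 µg/mL differed by -0.07 (adjusted p = 0.343). With the replicate block the adjusted p at 100 against 20 µg/mL was 0.00413, and with 1 replicate number left out it was 0.0307, 0.0434 and 0.0229. The call was lost with the length slope removed, where the change was -0.19 (adjusted p = 0.226, and 0.0544 with the block). It was also lost without replicate 2 at 100 µg/mL (adjusted p = 0.713) and without replicate 1 or 3 at 20 µg/mL (0.195 and 0.14). Over all 24 alternatives the adjusted p ran from 0.00413 to 0.917.

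The NRF2 list was higher at 100 µg/mL in small steps, with no member past the test over all genes. Of its 30 genes, all tested, 28 had a positive log2 fold change, and the median was 0.12, against -0.0015 over all genes tested. At an unadjusted p under 0.05, 12 were higher and 0 lower, against 4.32% and 4.41% of all genes. With the block these were 14 and 0, against 5.91% and 6.29%. All 3 middle-dose libraries exceeded all 3 low-dose ones for 12 members and fell below them for 0, while over all genes these shares were 5.2% and 5.16%. At 500 against 20 µg/mL, 26 of the 30 were called higher, against 4.6% of all genes, and the median was 0.46. The list's median was 0.11 to 0.15 with any one of the 6 libraries left out and 0.086 with the length slope removed. In the latter fit 9 members were higher and 0 lower at an unadjusted p under 0.05, against 536 and 510 of all 16356 genes. Among genes up to the median transcript length, 17 of the 17 members were positive, against 62.3% of all such genes. Among longer genes, 84.6% of the 13 members were positive, against 36.7%.

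Of the 30 members, 21 were found in the RefSeq table of promoters (GRCh38.p14), and 6 of these 21 (28.6%) hold the core of the antioxidant response element, TGACNNNGC on either strand, in the 250 bases before the most upstream start, against 10.9% of all 35116 promoters in the table. The sites are shown because they match the core of the element that NRF2 binds, though the list was not defined by it. They are given on the strand of the gene, with the core or its reverse complement in capitals.
CBR1: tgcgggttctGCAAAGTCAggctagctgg
GCLM: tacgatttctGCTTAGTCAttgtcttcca
GPX2: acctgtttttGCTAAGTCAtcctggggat
ME1: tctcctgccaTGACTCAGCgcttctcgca
PGD: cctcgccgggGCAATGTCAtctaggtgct
TXNRD1: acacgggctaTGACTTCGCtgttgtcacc
The CBR1 site lies at chr21:36069855-36069883 on the plus strand, the GCLM site at chr1:93909446-93909474 on the minus strand and the GPX2 site at chr14:64942849-64942877 on the minus strand. The ME1 site is at chr6:83431170-83431198 (minus), the PGD site at chr1:10398853-10398881 (plus) and the TXNRD1 site at chr12:104215670-104215698 (plus). A match describes the letters only. Of the 6, CBR1 had a log2 fold change of 0.19 at 100 against 20 µg/mL, GPX2 of 0.10, ME1 of 0.07, GCLM of 0.06, TXNRD1 of 0.04 and PGD of 0.02, and AKR1C1, with the largest step of the list, has no match in this window.

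Of the NRF2 list, AKR1C1 and AKR1C2, which are aldo-keto reductases and reduce aldehydes and ketones, had the largest steps. AKR1C1 (chromosome 10, 4963253 to 4983283) stood at 19.1, 17.6 and 18.5 CPM at 100 µg/mL, against 13.1, 12.5 and 15.5 CPM at 20 µg/mL. The groups do not overlap, and the fold change was 0.44 on the log2 scale (SE 0.10, adjusted p = 0.176 without and 0.00411 with the replicate block, edgeR). At 500 µg/mL it was 40.9, 40.0 and 43.5 CPM and in the vehicle 16.6, 14.6 and 14.0 CPM, so that the low dose was not above the vehicle. The blocked call held with the length slope removed (adjusted p = 0.00135) and without replicate number 1 or 3 (0.0424 and 0.00631), but not without number 2 (0.0997). Over its 24 alternatives the adjusted p ran from 0.000191 to 0.917.

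AKR1C2, its neighbour, had 14.6, 15.1 and 13.8 CPM at 100 µg/mL, against 12, 12.2 and 10.6 CPM at 20 µg/mL (log2 fold change 0.32, adjusted p = 0.275, edgeR). Reads of these near-identical genes are divided by estimate, so their separate values are uncertain. AKR1B10, which reduces retinal and other aldehydes, had 104, 103 and 104 CPM, against 91.2, 89.3 and 88.9 CPM (0.21, adjusted p = 0.176, edgeR). Both sets of 3 are tight and apart, and DESeq2 called the gene (adjusted p = 0.0485). Relative to 20 µg/mL, 500 µg/mL gave 1.60 for AKR1C1, 1.61 for AKR1C2 and 1.03 for AKR1B10. Both comparisons use the same low-dose libraries.

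An enzyme of the pentose phosphate pathway, which supplies NADPH, showed a smaller step. TKT, transketolase, had 634, 647 and 646 CPM at 100 µg/mL, against 533, 617 and 605 CPM at 20 µg/mL (log2 fold change 0.14, SE 0.05). It did not pass the edgeR test (adjusted p = 0.33), though the groups do not overlap. At 500 against 20 µg/mL it was called higher, by 0.45.

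Conjugating and detoxifying enzymes followed. UGT1A6, a glucuronosyltransferase whose last exons are shared with its gene cluster, had 56.9, 58.1 and 55.0 CPM at 100 µg/mL, against 49.4, 46.2 and 50.9 CPM at 20 µg/mL (log2 fold change 0.22, adjusted p = 0.176 without and 0.0631 with the block, edgeR). EPHX1, an epoxide hydrolase, had 128, 130 and 124 CPM, against 114, 118 and 109 CPM, and CBR1, a carbonyl reductase, 32.8, 33.7 and 32.9 CPM, against 28.4, 30 and 28.9 CPM. Both were higher in every library of the middle dose, without passing the test (adjusted p = 0.395 and 0.364, edgeR). ALDH3A1, an aldehyde dehydrogenase, had 27.8, 29 and 27.9 CPM, against 25.9, 27.2 and 23.1 CPM. Vehicle levels of EPHX1, 119, 121 and 127 CPM, lay above all low-dose libraries and overlapped the middle dose. Those of ALDH3A1, 26.9, 27.2 and 28 CPM, overlapped both doses. For UGT1A6 the vehicle, at 50, 44.6 and 49.3 CPM, overlapped the low dose and lay below the middle dose. For CBR1 it lay below both, at 27.2, 27.6 and 25.9 CPM.

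Ferritin, the iron store, is on the separate iron and heme list but is also driven by NRF2. Its light chain FTL had 3020, 3200 and 2890 CPM at 100 µg/mL, against 2590, 2580 and 2100 CPM at 20 µg/mL, and 3830, 3910 and 3760 CPM at 500 µg/mL. Vehicle levels of FTL, 2690, 2660 and 2730 CPM, lay above all 3 low-dose libraries and below all 3 of the middle dose. The step of 0.33 at 100 against 20 µg/mL (SE 0.08) thus includes a low dose under the vehicle. It was about as large as the 0.34 at 500 against 100 µg/mL. In the edgeR fit the second was called and the first was not (adjusted p = 0.00924 and 0.176), and the difference between the steps was not tested. DESeq2 called the first (adjusted p = 0.0459), as did edgeR without a filter on low counts (adjusted p = 5.25e-07). Over the 25 alternatives its adjusted p reached 0.991, without replicate 2 at 100 µg/mL. The heavy chain FTH1 had 5390, 5050 and 4970 CPM, against 4730, 4740 and 4230 CPM (0.17, adjusted p = 0.407). Vehicle levels of FTH1, 5320, 5100 and 5420 CPM, overlapped those of the middle dose. Both chains have many processed copies in the genome, among which reads may be divided.

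Other defining NRF2 targets also had no call at 100 against 20 µg/mL. NQO1, a quinone reductase often used as a reporter of NRF2, had 474, 476 and 494 CPM at 100 µg/mL, against 461, 461 and 445 CPM at 20 µg/mL (log2 fold change 0.08, adjusted p = 0.731, edgeR). Its groups do not overlap. HMOX1, heme oxygenase, had 12.4, 11.7 and 14.0 CPM, against 12.5, 11.2 and 10.2 CPM, with a log2 fold change of 0.17 (SE 0.08, adjusted p = 0.586, edgeR), and the groups overlap. GCLM, which makes glutathione's precursor, had 69.3, 59.7 and 63.2 CPM, against 67.2, 56.1 and 60.5 CPM. Here replicate 1 was the highest at both doses. TXNRD1, thioredoxin reductase, had 339, 321 and 332 CPM, against 322, 315 and 328 CPM. Each of these 4 was called higher at 500 against 20 µg/mL, by 0.44, 0.79, 0.55 and 0.35.

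**Figure D2:**
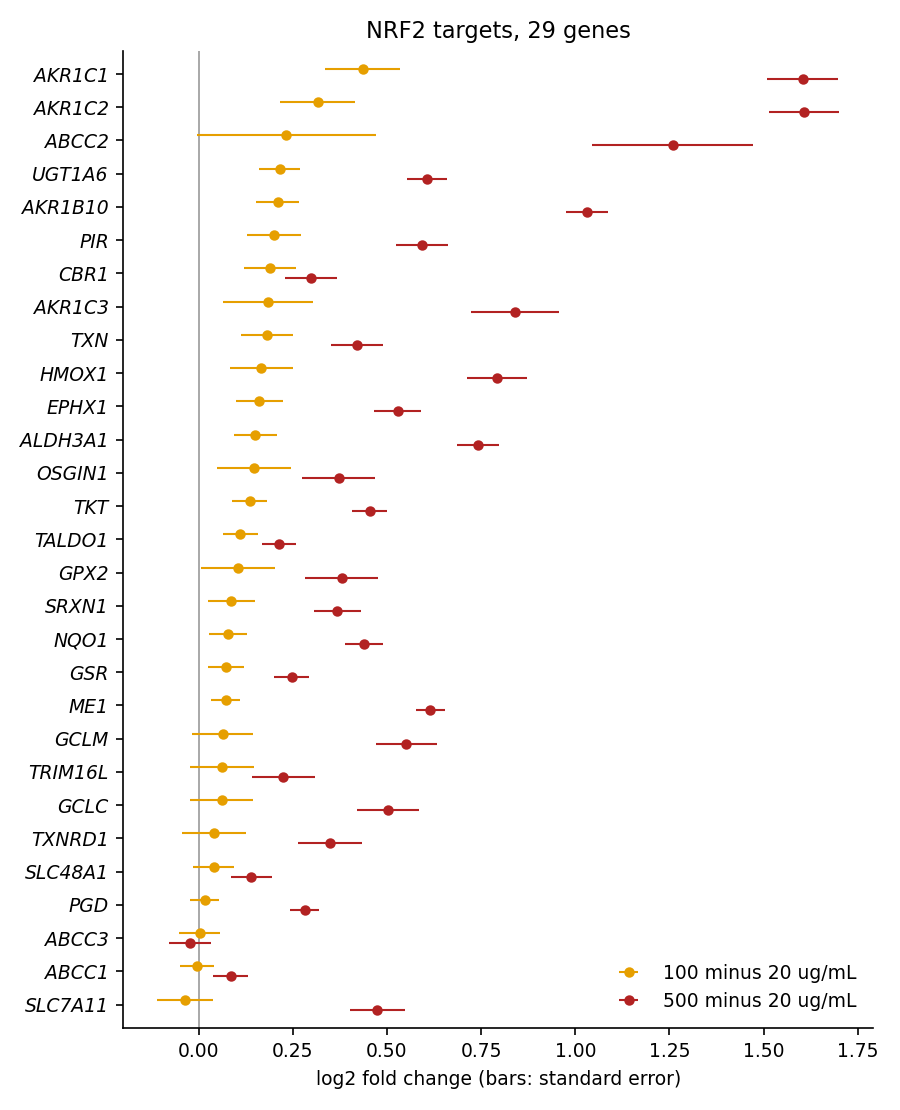
Points are log2 fold changes of 29 of the 30 NRF2 targets with standard errors as bars, ordered by the change at 100 against 20 µg/mL (orange), with 500 against 20 µg/mL in red. Both use the same low-dose libraries. The medians over the whole list are 0.12 in orange and 0.46 in red, and AKR1C1 is at the top.

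Lower genes of the blocked fit that were also graded with dose included DHRS3, ALDH1A3 and NRIP1. They fall outside the rule for named genes and were chosen after their values were seen. DHRS3 (chromosome 1, 12567910 to 12617731), which reduces retinal to retinol, had 20.5, 22.5 and 22.5 CPM at 100 µg/mL, against 23.7, 29.1 and 30.9 CPM at 20 µg/mL. The groups do not overlap, and the log2 fold change was -0.35 (SE 0.09, adjusted p = 0.176 without and 0.00802 with the block, edgeR). Top-dose values were 11.8, 12.4 and 16.8 CPM, against 26.9, 28.2 and 25.6 CPM in the vehicle. ALDH1A3 (chromosome 15, 100877714 to 100916626), which oxidises retinal to retinoic acid, had 17.7, 21.0 and 21.4 CPM, against 24.9, 26.4 and 25.9 CPM (-0.36, SE 0.10, adjusted p = 0.18 without and 0.00845 with the block). It fell further at 500 µg/mL, to 12.6, 14.2 and 13.0 CPM, against 38.9, 26.7 and 25.7 CPM in the vehicle. In both genes the middle dose lay between the others. NRIP1 (chromosome 21, 14961235 to 15065936), a corepressor of nuclear receptors, had 98.3, 86.9 and 100 CPM, against 110, 105 and 119 CPM (-0.23, SE 0.05, adjusted p = 0.11 without and 0.00845 with the block), and DESeq2 called it (adjusted p = 0.00686).

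The blocked calls of DHRS3, ALDH1A3 and NRIP1 held with the length slope removed (adjusted p = 0.00135, 0.0177 and 0.0264, edgeR), as did those of AKR1C1, NTN4, SHROOM1 and VIM. Without replicate number 2 of every dose, all 3 were above the threshold (0.0997, 0.108 and 0.0997). DHRS3 and NRIP1 kept the call without number 1 (0.0199 for each), and ALDH1A3 in none of the 3. Over the alternatives the adjusted p ran from 0.000304 to 0.917 for DHRS3, from 0.000331 to 0.917 for ALDH1A3 and from 0.00579 to 0.917 for NRIP1.

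**Figure D3:**
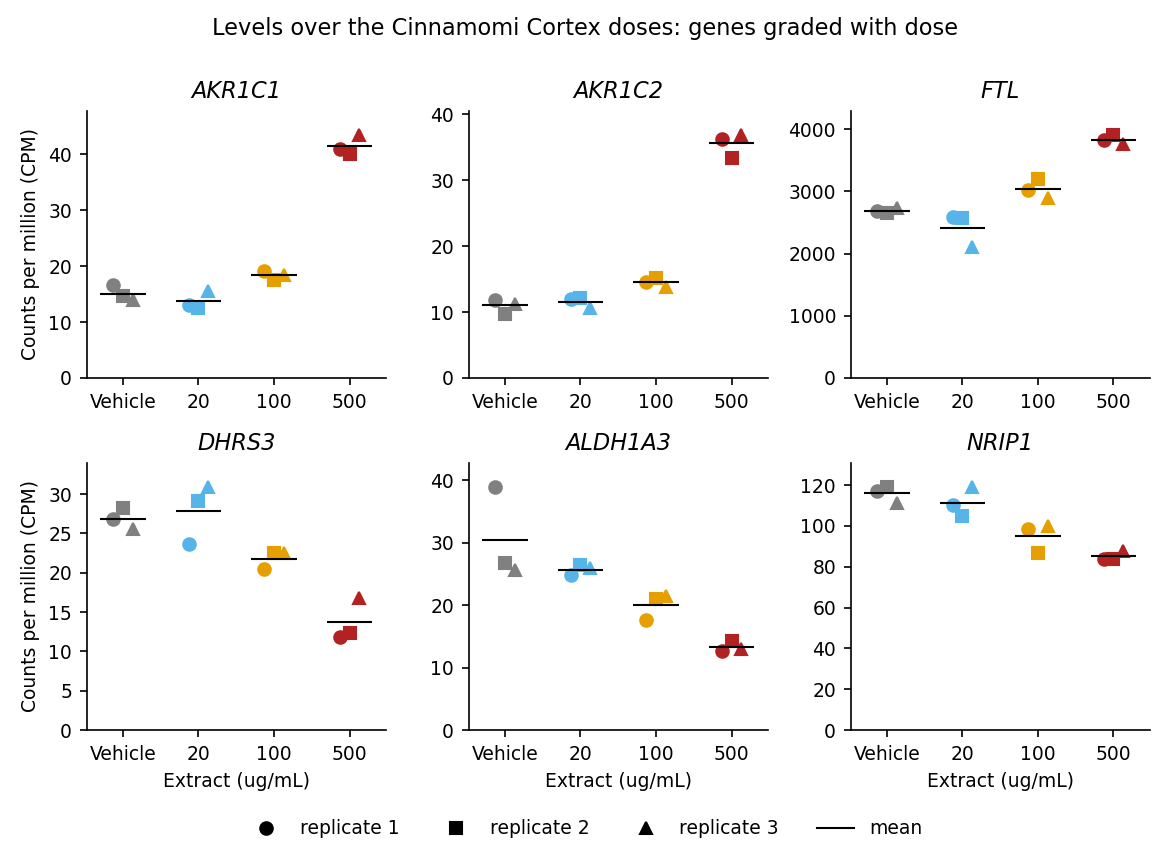
Each panel gives the CPM of 1 gene in the vehicle and at 20, 100 and 500 µg/mL of Cinnamomi Cortex, with 3 libraries per group marked by replicate and the mean as a line. In AKR1C1, AKR1C2 and FTL the 3 libraries at 100 µg/mL lie above those at 20 µg/mL and below those at 500 µg/mL. In DHRS3 and ALDH1A3 the order is the reverse, and in NRIP1 the 3 libraries at 100 µg/mL lie below those at 20 µg/mL and overlap those at 500 µg/mL.

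Among the other lower genes of the blocked fit, all chosen after their values were seen, BMPR2, a receptor for bone morphogenetic proteins, had 113, 102 and 108 CPM at 100 µg/mL, against 128, 118 and 121 CPM at 20 µg/mL (log2 fold change -0.19, SE 0.04). ITGA1, a collagen-binding integrin subunit, had 79.8, 75.4 and 79.6 CPM, against 89.1, 87.5 and 94.5 CPM (-0.21, SE 0.06). DESeq2 called BMPR2 (adjusted p = 0.0398). Both lost the blocked call with the length slope removed (adjusted p = 0.187 and 0.191, edgeR, against 0.0171 and 0.0175 with the slope left in). NTN4, which encodes the secreted protein netrin-4, had 17.6, 17.8 and 17.3 CPM, against 22.7, 20.3 and 21.0 CPM, with no overlap, and kept the call (0.0264). NTN4 at 500 µg/mL was 19.1, 18.0 and 18.3 CPM, just above the middle dose. Its vehicle libraries, at 20.7, 21.2 and 17.8 CPM, overlapped the low and the top dose, and the lowest was at the level of the middle dose. The 45 libraries of other treatments ranged from 17.5 to 22.2 CPM. SAMD9, an interferon-induced gene, had 61.9, 46 and 52.1 CPM, against 70.1, 58.8 and 65 CPM, and SHROOM1, which binds actin, 30.1, 36.3 and 34.6 CPM, against 33.1, 42 and 44.4 CPM. In both the doses overlap and separate only within replicate numbers. With the length slope removed, SAMD9 lost the blocked call (adjusted p = 0.0748, edgeR, against 0.0175) and SHROOM1 kept it (0.0402). The higher genes called with the block included MRPL28, a protein of the mitochondrial ribosome, with 53.2, 60.8 and 58.6 CPM, against 49.4, 52.5 and 52.6 CPM, and VASP, which promotes actin assembly, with 226, 230 and 217 CPM, against 208, 202 and 202 CPM. Both lost the call with the length slope removed (adjusted p = 0.113 and 0.16, against 0.0407 and 0.0476). Without replicate number 2 of every dose, only KDM3A and VIM of the 16 genes kept the blocked call, and the adjusted p of MRPL28 reached 0.299.

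LGR5, a receptor that marks stem cells of the intestinal crypt, had 36.1, 33.8 and 35.9 CPM at 100 µg/mL, against 42.1, 39.5 and 40.5 CPM at 20 µg/mL. Its log2 fold change of -0.21 missed the threshold (adjusted p = 0.176 without and 0.0505 with the block, edgeR). At 500 µg/mL it stood at 31.3, 30.8 and 27.1 CPM and in the vehicle at 39.6, 39.6 and 44.6 CPM. AXIN2, a feedback inhibitor of WNT signalling, moved the other way between these doses, with 82.1, 82.5 and 82.4 CPM, against 77.7, 74.9 and 76.3 CPM (0.11, adjusted p = 0.494). Its vehicle libraries, at 94.4, 97.6 and 86.0 CPM, all lay above both doses, and at 500 µg/mL it stood at 87.7, 87.1 and 91.7 CPM. In the 45 libraries of other treatments AXIN2 ranged from 70.3 to 83.4 CPM, below every vehicle library too. KRT20, a keratin of differentiated enterocytes, had 304, 328 and 282 CPM, against 272, 265 and 268 CPM (0.18, adjusted p = 0.408 without and 0.0631 with the block). Vehicle levels of KRT20, 294, 314 and 267 CPM, overlapped both doses, and at 500 µg/mL it had 423, 385 and 395 CPM. In all 3 genes the libraries at 100 and 20 µg/mL do not overlap, without a call.

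A transcript without an ordinary symbol had a wide step graded with dose. AC103691.1 (chromosome 15, 64950916 to 64951435), annotated as antisense to ANKDD1A, had 0.731, 0.38 and 0.727 CPM at 100 µg/mL, against 1.40, 2.02 and 2.06 CPM at 20 µg/mL. Its log2 fold change was -1.57 (SE 0.31, adjusted p = 0.0664 without and 0.00585 with the block, edgeR), and it was the gene called when the length slope was removed without a block. At 500 µg/mL it was nearly absent, at 0.0914, 0.122 and 0.0934 CPM, against 2.16, 1.40 and 1.20 CPM in the vehicle. ANKDD1A itself had 3.01, 1.77 and 2.10 CPM, against 4.30, 2.68 and 3.29 CPM at these doses (-0.59, SE 0.20, adjusted p = 0.33). Because the strand setting of the counting is not given, reads of the 2 genes cannot be told apart.

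VIM, the intermediate filament of mesenchymal cells, was called higher with the block, but on 1 library. It had 7.08, 0 and 0.0808 CPM at 100 µg/mL, against 0.441, 0.0735 and 0 CPM at 20 µg/mL. The groups overlap, and replicate 1 at 100 µg/mL alone, with 155 counts, stands out. Without that library the log2 fold change was -2, not called. Only 3 of the 57 libraries exceeded 1 CPM, the next being replicate 1 of Astragali Radix at 100 µg/mL at 6.46 CPM. Summed fibroblast markers did not follow it, as given above.

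Of the 27 genes tested from the hypoxia and glycolysis list, KDM3A among them, 4 were lower and 0 higher at an unadjusted p under 0.05, against 4.41% and 4.32% of all genes. The median was -0.0015, the same as over all genes. PDK1, a kinase that restrains pyruvate dehydrogenase, had 27.4, 23.0 and 27.7 CPM at 100 µg/mL, against 29.9, 32.1 and 30.8 CPM at 20 µg/mL (log2 fold change -0.25, SE 0.06, adjusted p = 0.176 without and 0.0585 with the block, edgeR). BNIP3, a mitophagy receptor, had 2.51, 1.86 and 1.90 CPM, against 2.83, 2.76 and 3.03 CPM (-0.46, SE 0.15, adjusted p = 0.322). Both sets of libraries are apart. VEGFA and CA9, commonly used markers of hypoxia, differed by 0.04 and -0.08 (SE 0.05 and 0.09). At 500 against 20 µg/mL, 9 of the list were called higher and 1 lower, against 4.6% and 5.61% of all genes. In that comparison PDK1 differed by -0.19 and BNIP3 by -0.38.

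CCNG2, an atypical cyclin that FOXO factors induce, had 32.2, 28.5 and 29.9 CPM at 100 µg/mL, against 37.0, 34.9 and 34.7 CPM at 20 µg/mL (log2 fold change -0.24, SE 0.05, adjusted p = 0.176 without and 0.0175 with the block, edgeR). It belongs to the FOXO and MondoA list, where 16 of the 19 genes tested were negative and 3 were positive, against 49.4% of all genes. With the block 1 of the 19 was called, against 0.0978% of all genes. The list's median was -0.093, and -0.047 without replicate 2 at 100 µg/mL. Genes of this list are long, with a median transcript of 4178 bases, and of all genes over the median length 36.7% were positive. With the length slope removed the list's median was -0.067, against 1e-04 over all genes. KLHL24 had 20.6, 21.3 and 20.5 CPM, against 24.2, 22.1 and 24.6 CPM. CHIC1 fell to 32.2, 29.1 and 30.3 CPM with the block, against 38.5, 37.2 and 36.1 CPM (-0.29, adjusted p = 0.11 without and 0.0175 with the block). Like KDM3A, CHIC1 was higher again at 500 µg/mL, at 34.4, 37.2 and 34.0 CPM. With the length slope removed, the blocked calls of CCNG2 and CHIC1 were lost (adjusted p = 0.0884 for each).

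**Figure D4:**
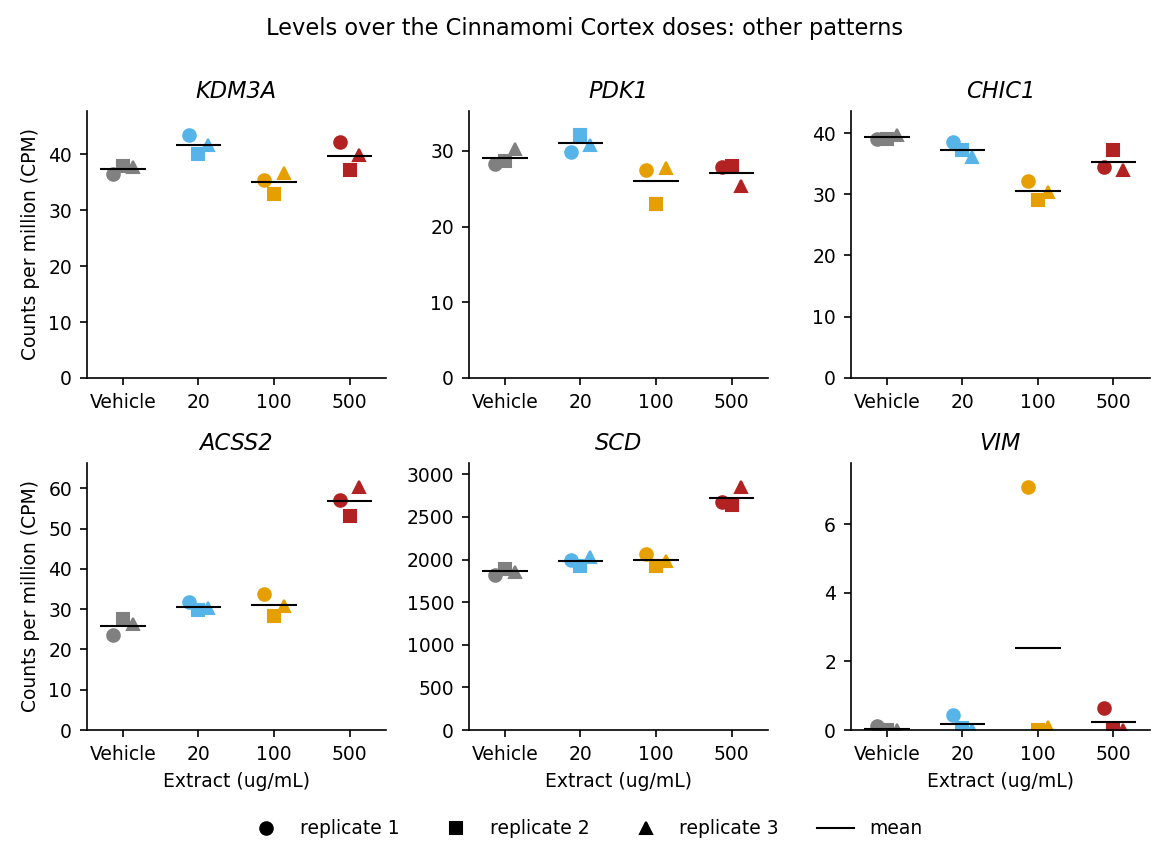
Each panel gives the CPM of 1 gene in the vehicle and at 20, 100 and 500 µg/mL of Cinnamomi Cortex, with 3 libraries per group marked by replicate and the mean as a line. KDM3A, PDK1 and CHIC1 have their lowest mean at 100 µg/mL. ACSS2 and SCD are level at 20 and 100 µg/mL, and the VIM mean at 100 µg/mL rests on replicate 1.

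Metallothioneins, which bind zinc and copper and are induced through the zinc sensor MTF1, were lower at 500 µg/mL and were not called at 100 µg/mL. MT2A had 34.3, 19.7 and 26.2 CPM at 100 µg/mL, against 38.8, 34.2 and 28.7 CPM at 20 µg/mL. The groups overlap, since replicate 1 at the middle dose exceeded 2 of the low-dose libraries and replicate 2 was far lower. Its log2 fold change was -0.35 (SE 0.17, adjusted p = 0.535, edgeR). MT1E had 75.7, 48.7 and 64.3 CPM, against 90.4, 76.9 and 66.6 CPM (-0.31, adjusted p = 0.5), and MT1X 2.15, 1.77 and 2.71 CPM, against 2.57, 2.72 and 2.68 CPM (-0.26, adjusted p = 0.792). MT2A and MT1E were lower in all 3 pairs of the same replicate number, but not called with the block (adjusted p = 0.207 and 0.175, edgeR). Without a filter on low counts edgeR called both (adjusted p = 9.82e-05 and 3.13e-05). These 3 fell by 1.32, 1.38 and 1.89 on the log2 scale at 500 against 20 µg/mL. Metallothionein genes are near-identical, so that their separate values are uncertain.

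Zinc transporters gave tighter values. SLC30A1, which exports zinc and is also a target of MTF1, had 35.0, 31.7 and 35.1 CPM at 100 µg/mL, against 37.2, 42.1 and 42.0 CPM at 20 µg/mL (log2 fold change -0.25, SE 0.08, adjusted p = 0.25 without and 0.0631 with the block, edgeR). The groups do not overlap. SLC39A10, a zinc importer, had 48.1, 40.3 and 46.6 CPM, against 41.2, 40.4 and 42.3 CPM (0.12, adjusted p = 0.418), and replicate 2 at the middle dose lies just under the lowest low-dose value. SLC39A10 reached 83.2, 76.0 and 77.4 CPM at 500 µg/mL. Over the 13 genes of the list tested, 2 were higher and 3 lower at an unadjusted p under 0.05, against 4.32% and 4.41% of all genes. At 500 against 20 µg/mL 2 were called higher and 5 lower, against 4.6% and 5.61%.

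Sterol and fatty acid synthesis, which the SREBP factors drive, rose at the top dose, with small steps between the low and middle doses. Of 25 genes of cholesterol synthesis and uptake, 0 were called at 100 against 20 µg/mL, and the median log2 fold change was 0.045. At an unadjusted p under 0.05, 2 were higher and 0 lower, against 4.32% and 4.41% of all genes. Of the 25, 20 were positive, against 49.4% of all genes. For 4 of the 25 all 3 middle-dose libraries exceeded all 3 low-dose ones, against 5.2% of all genes, and for 0 all lay below. At 500 against 20 µg/mL 22 were called higher, against 4.6% of all genes, with a median of 0.49. At 500 against 100 µg/mL 22 were also called higher, against 3.04% of all genes, with a median of 0.42. HMGCS1, which makes HMG-CoA, had 340, 270 and 278 CPM at 100 µg/mL, against 322, 269 and 275 CPM at 20 µg/mL, and replicate 1 was the highest at both doses. LSS, lanosterol synthase, had 119, 137 and 138 CPM, against 115, 131 and 126 CPM. The log2 fold changes of these 2 genes were 0.04 (SE 0.12) and 0.08 (SE 0.06). Vehicle levels of LSS, 108, 106 and 100 CPM, lay below all libraries of both doses. Those of HMGCS1, 296, 293 and 234 CPM, overlapped both doses. Neither dose was tested against the vehicle.

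SCD, the stearoyl-CoA desaturase, had 2060, 1930 and 1980 CPM at 100 µg/mL, against 1990, 1930 and 2030 CPM at 20 µg/mL, a log2 fold change of 0.0032 (SE 0.04). ACSS2, which makes acetyl-CoA from acetate, had 33.8, 28.4 and 30.8 CPM, against 31.7, 29.9 and 30.2 CPM (0.02, SE 0.08). The groups overlap fully in both. Vehicle levels of SCD, 1820, 1890 and 1850 CPM, and of ACSS2, 23.6, 27.6 and 26.3 CPM, lay below all libraries of both doses. SCD at 500 µg/mL was 2670, 2640 and 2850 CPM and ACSS2 57.1, 53.2 and 60.3 CPM, so that both were called higher at 500 against 100 µg/mL, by 0.45 and 0.87. Among the 11 tested genes of fatty acid synthesis, 0 passed an unadjusted p of 0.05 at 100 against 20 µg/mL, where 8.74% of all genes did. At 500 against 20 µg/mL 7 were called higher and 1 lower, against 4.6% and 5.61% of all genes.

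Of 34 tested genes of the ATF4 amino acid response, 3 were higher and 0 lower at an unadjusted p under 0.05, against 4.32% and 4.41% of all genes. At 500 against 20 µg/mL 10 were called higher and 1 lower, against 4.6% and 5.61%. ASNS, asparagine synthetase and a target of ATF4, had 52.9, 53.2 and 51.8 CPM at 100 µg/mL, against 49.8, 53.2 and 52.0 CPM at 20 µg/mL. TRIB3, a pseudokinase under the same factor, had 34.8, 39.1 and 43.0 CPM, against 35.7, 35.4 and 37.7 CPM. The groups overlap in both (log2 fold changes 0.03 and 0.11), whereas at 500 against 20 µg/mL they were called higher by 0.39 and 0.67. CHAC1, which degrades glutathione, had 2.83, 3.12 and 3.19 CPM, against 2.98, 4.19 and 2.77 CPM, and DDIT3, the stress factor CHOP, 5.71, 4.43 and 5.62 CPM, against 5.37, 5.92 and 4.48 CPM. DDIT3 differed by -0.02 at 500 against 20 µg/mL too.

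CDKN1A, the cell cycle inhibitor p21, had 18.5, 15.6 and 17.1 CPM at 100 µg/mL, against 15.9, 17.3 and 12.9 CPM at 20 µg/mL (log2 fold change 0.15, adjusted p = 0.671, edgeR). CENPE, a kinesin of the mitotic spindle, had 69.5, 50.9 and 60.4 CPM, against 75.4, 68.2 and 67.7 CPM (-0.23, adjusted p = 0.551). Replicate 2 at the middle dose was the lowest of the 6. The 2 genes changed by 0.74 and -1.20 at 500 against 20 µg/mL. CYP1A1, the main target of the aryl hydrocarbon receptor, was at or under 0.845 CPM in all 6 libraries, and TXNIP had 47.1, 46.0 and 48.7 CPM, against 46.2, 50.8 and 51.7 CPM.

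Across the 21 lists, the medians at 100 against 20 µg/mL stayed between -0.093 and 0.16 on the log2 scale. The highest belonged to the 13 mitochondrially encoded messages, all positive, against 49.4% of all genes. Of the 13, 0 were called and 1 was higher at an unadjusted p under 0.05, against 4.32% of all genes. Mitochondrial messages took 8.49, 9.58 and 8.27% of counts at 100 µg/mL, against 10.3, 7.58 and 6.53% at 20 µg/mL, so that the groups overlap. That rank rests on single libraries. The median of these messages was 0.0158 without replicate 3 at 20 µg/mL, 0.0483 without replicate 2 at 100 µg/mL and 0.0578 with the length slope removed, where the NRF2 list had 0.109, 0.121 and 0.0861. Without replicate 1 at 20 µg/mL it was 0.437, with 7 members higher at an unadjusted p under 0.05, against 744 of all 16356 genes.

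Heat shock and ER chaperones, with 22 of 24 genes positive, against 49.4% of all genes, had a median of 0.073 and 3 members higher at an unadjusted p under 0.05, against 4.32% of all genes. Their median was 0.031 with 1 such member (851 of all 16356 genes) without replicate 1 at 100 µg/mL. It was 0.042 with 0 such members (536 of all 16356 genes) with the length slope removed. Among the 3 was MANF, a secreted protein of the endoplasmic reticulum, with 43.5, 38.2 and 38.4 CPM, against 35.2, 34.4 and 36.0 CPM. The largest of the NF-kB list was CXCL8, a chemokine for neutrophils, with 5.85, 5.40 and 6.83 CPM, against 5.33, 4.78 and 5.18 CPM (0.24, adjusted p = 0.541, edgeR).

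**Figure D5:**
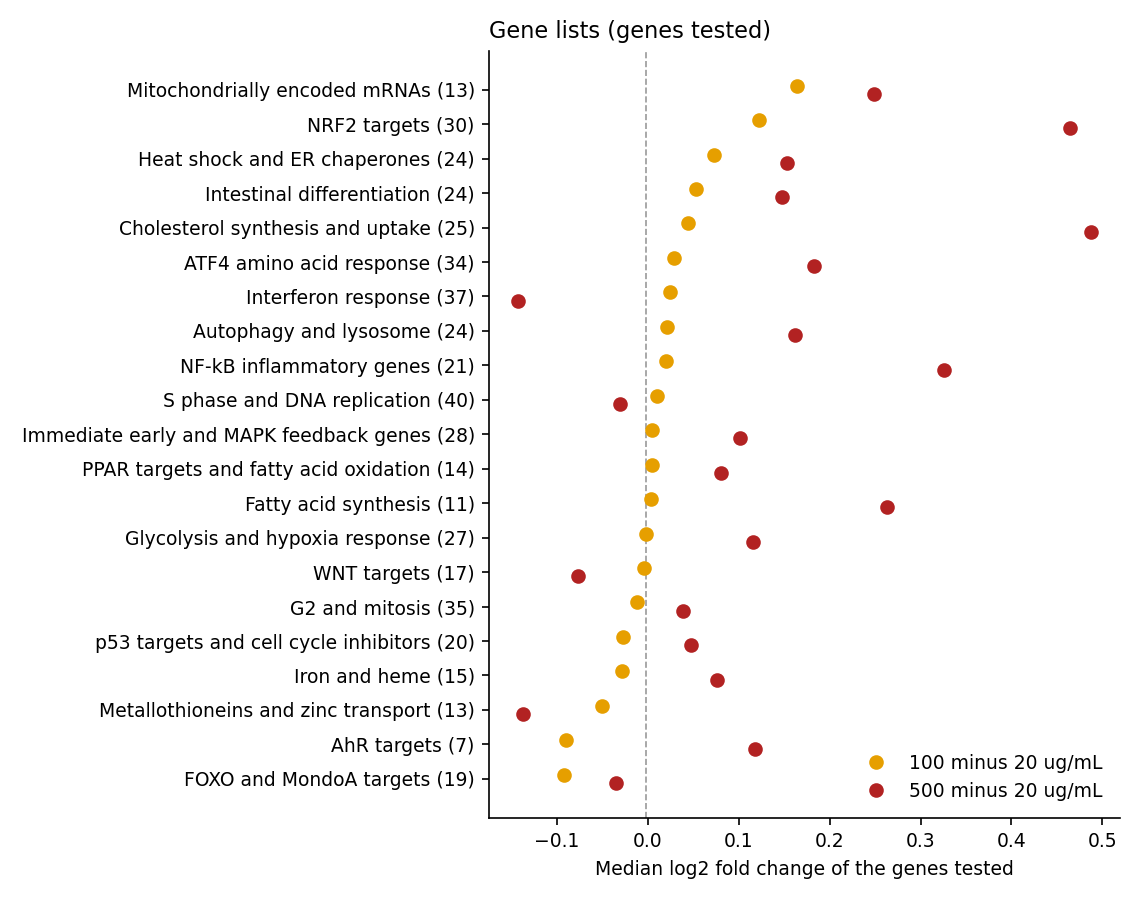
Points are the median log2 fold change of the genes tested in each of 21 lists, with the number of genes in brackets, at 100 against 20 µg/mL (orange) and 500 against 20 µg/mL (red), which share the low-dose libraries. The dashed line is the median of all 16356 genes at 100 against 20 µg/mL. The NRF2 list is at 0.12 in orange, and cholesterol synthesis and uptake is at 0.045 in orange and 0.49 in red.

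Genes that responded at the top dose against the vehicle leaned the same way at the middle dose. That comparison shares no library with the one described here, but it has a similar difference in length slope, given below. Of the 1018 genes higher at 500 µg/mL than in the vehicle (6.22% of those tested), 740 (72.7%) had a positive log2 fold change at 100 against 20 µg/mL, against 49.4% of all genes, with a median of 0.034. For 113 of them (11.1%) all 3 middle-dose libraries exceeded all 3 low-dose ones, against 5.2% of all genes, and for 18 all lay below. Of the 1095 lower at 500 µg/mL (6.69%), 18.3% were positive, and the median was -0.076. For 175 of these (16%) all 3 middle-dose libraries lay below, against 5.16% of all genes, and for 13 all lay above. The share for the higher genes ran from 56.9 to 78.6% with any one of the 6 libraries left out, and was lowest without replicate 1 at 20 µg/mL.

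Transcript length moved with this lean. The mean length slope was -0.0267 at 500 µg/mL and 0.0154 in the vehicle, against -0.0266 at 100 µg/mL and 0.0207 at 20 µg/mL. The 2 comparisons are therefore not independent in this respect, though they share no library. Genes lower at 100 µg/mL at an unadjusted p under 0.05 had a median transcript length of 5304.5 bases, the higher ones 1911 bases and all genes 3147.5 bases. With the length slope removed, the shares were 69.2% for the genes higher at 500 µg/mL and 25.2% for the lower ones, against 50% of all genes. Among genes up to the median length, 82% of those higher and 34.2% of those lower at 500 µg/mL were positive, against 62.3% of all such genes. Among longer genes the shares were 63.2% and 12.7%, against 36.7%. The sets differed in both length classes. Length still varies within each class, and the part of length in this lean was not tested.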

How the data were processed

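RNA-seq libraries of HT29 cells were made from RNA with an integrity number above 7 and read as paired 100 base reads, per the labels' protocols. The authors deposited RSEM expected counts per gene without further normalization, in which 8.8% of values were not whole, and these were rounded here. Per the submitters' processing notes, which give no roles, the tools were STAR 2.7.3a and RSEM 1.3.3, with Trim Galore 0.6.5 and FastQC 0.11.9, on GRCh38. Neither annotation release nor strand setting is given in the sources used here. The table has 273 columns, of which 60 were tied to samples by their labels and 213 were not used. Expected counts divide reads among near-identical genes, and total counts per library, 20459365 to 36253783, set the precision of low levels.

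Genes were kept by filterByExpr (minimum count 10) and tested with edgeR 4.0.16 (R 4.3.3; quasi-likelihood, TMM factors 0.938 to 1.043) on the 57 libraries of 19 groups with 3 replicates, with 1 coefficient per group and no block. Paeoniae Radix, with 1 library per dose, was left out. The common coefficient of variation between libraries was 0.057, and p-values speak only of that spread, in part perhaps technical. Same-numbered libraries at 100 and 20 µg/mL deviated together (correlations of deviations from group means 0.55, 0.32 and 0.27), so the numbers were taken to pair them, and blocked values come from 54 treated libraries with the first 2 numbers of the sample code as the block. For 500 µg/mL, replicate 2 did not follow (-0.15 with 20 and -0.2 with 100 µg/mL).

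The longest GENCODE release 29 transcript gave each gene's length, for 99.3% of genes. The slope of log2 CPM on it was removed as an offset in 2 fits. The script was tested on simulated data. Alternatives were other factors, filters, blocks, library sets, left-out libraries and DESeq2 1.42.0. Coordinates are from GENCODE 29 and motif sequences from RefSeq. The rule for named genes took called genes, called members of lists and a panel of 25, and other genes named were chosen after their values were seen. The comparison, the lists and the panel were chosen with earlier results of these data known. Single-gene results of 2 genes on the lists are not reported here.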

Additional observations from a re-analysis of the deposited data

How the results depend on the processing

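The count at 100 against 20 µg/mL, 1 gene without a block, was the same with RLE factors, a minimum count of 50 and the length slope removed, though the last called AC103691.1 and not KDM3A. Without a filter on low counts it was 258 of 34269 genes. It was 0 with the 9 libraries of the bark alone or the 6 compared alone (856 and 859 genes at an unadjusted p under 0.05, edgeR), 4 with a library set term and 5 with that term and replicate 2 at 500 µg/mL left out. DESeq2 called 21, with 13001 adjusted p-values not available. With the replicate block, which rests on the pairing of the numbers, the count was 0 in 9 libraries (1464 at an unadjusted p under 0.05), 9 in 6 libraries, 16 in 54 libraries and 8 in 54 libraries with the length slope removed, and 3 to 47 in 54 libraries with 1 number left out. Leaving out 1 library gave 0 to 31, and 1 replicate number of every dose 0 to 1.

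The 1670 genes at 500 against 20 µg/mL became 552 with 9 libraries alone, 2727 with the replicate block in 54 libraries (2645 with the length slope removed), 974 to 1861 with 1 library left out and 840 (number 3), 1041 (number 2) and 1173 (number 1) without 1 number of every dose. The 963 at 500 against 100 µg/mL became 222 with 9 libraries alone, 1790 with the block (1907 with the length slope removed), 474 to 1255 with 1 library left out and 343 to 693 without 1 number of every dose. With the block and 1 number left out they were 784 to 1660. No result reversed while called. The cause of these moves was not tested, except that fewer libraries leave fewer degrees of freedom. At a common coefficient of variation of 0.057 and 3 libraries per dose, a gene that was not called is not shown to be equal at the 2 doses.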
